A study of Mus musculus with 9 samples.

Results

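This account follows 40 genes of smooth muscle, pericyte and fibroblast programmes in cultured mouse lung endothelial cells, out of 37104 loci in the expression tables. A locus was taken when its gene name, or a comma-separated portion of that name, equalled a member of the list, and all 40 members were found. The members were chosen by the FPKM values of these same libraries, because such genes differ between the groups of this study, so their differences between groups are given as a description, with no test. By role, 9 members belong to the contractile apparatus, 7 mark mural cells and fibroblasts, 9 are collagen chains and 15 are other matrix proteins or enzymes that build the matrix.

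The study asked what the stress-activated kinases JNK1 and JNK2 do in endothelium, and measured messenger RNA by sequencing in 3 groups of 3 libraries. All mice were C57BL/6J adults of 10 to 12 weeks, and all carried Jnk3-/-, so every group lacked JNK3. The ECtrl group was Cdh5-Cre+ with Jnk1+/+ and Jnk2+/+, the EfCtrl group was Cdh5-Cre- with Jnk1LoxP/LoxP and Jnk2LoxP/LoxP, and the E3KO group was Cdh5-Cre+ with Jnk1LoxP/LoxP and Jnk2LoxP/LoxP. ECtrl therefore controls for Cre and EfCtrl for the floxed alleles, and both comparisons of E3KO use the same E3KO libraries. The Cdh5 promoter drives Cre in endothelium, and recombination in other cells that a culture may hold was not measured here. Cells were taken from pooled lungs with beads against ICAM2, an endothelial surface protein, and were grown before RNA was extracted, so each library is 1 such preparation rather than 1 animal.

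Smooth muscle cells and pericytes wrap blood vessels, and fibroblasts fill the tissue between them. Contractile genes such as Acta2 and Tagln are switched on by serum response factor, which binds the CArG box, and their products let a cell shorten. Fibroblasts lay down type I and type III collagen, proteoglycans and microfibrils. Endothelial cells normally express little of the contractile and fibrillar collagen genes, and gain of both, with loss of endothelial genes, is the usual description of endothelial-to-mesenchymal transition. Mesothelial cells, which line the lung surface, also make type I collagen and smooth muscle actin in culture.

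Values are FPKM, the sequenced fragments of a gene scaled to transcript length and to the size of the library, so they can be set side by side between genes. The tables hold no read counts and the low values show no clear steps of whole reads, so the depth behind each value is unknown. Sums were taken over the 33355 loci whose symbol names no other locus. In 8 libraries they were between 656089 and 908401 FPKM, whereas the library labelled E3KO replicate 1 summed to 9841812. Its 10 highest symbols held 96.4% of that sum, against 40.9% to 56.8% elsewhere. Mapk8, which encodes JNK1, stood at 20.7 FPKM in that library, 8.77 in E3KO replicate 2 and 4.65 in E3KO replicate 3, against 14.0 to 17.9 in the 6 control libraries. Mapk9, which encodes JNK2, ran from 20.7 to 35.1 FPKM in E3KO and from 42.7 to 50.9 in the controls. So Mapk9 was lower in all E3KO libraries and Mapk8 was lower in 2 of the 3. For some members the differences are also given without the library labelled E3KO replicate 1. The 14 pan-endothelial markers summed to 3520 to 4240 FPKM in ECtrl, 3840 to 4040 in EfCtrl and 4010 to 4560 in E3KO, with Pecam1 at 643 FPKM or more in every library, as the label of lung endothelial cells says. Single endothelial markers differed within that sum: Emcn (endomucin) was at 1450 to 1560 FPKM in E3KO against 822 to 1090 in the controls, and Cldn5, the endothelial claudin, at 97.5 to 129 against 167 to 276, though limma called neither (adjusted p of 0.0572 to 0.0769).

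The promoters of 4 members are shown for the following reasons: Acta2 and Myl9 hold a CArG box or a near match to it, Col6a1 holds a site for Jun and Fos proteins, and Bgn had the largest difference from ECtrl on the log2 scale. Each is the 170 bases before the annotated start on the gene's own strand, from RefSeq on GRCm38.p6, and capitals mark the motifs searched. These lie at chr19:34255374-34255543 on the minus strand for Acta2, chr2:156775294-156775463 on the plus strand for Myl9, chr10:76726045-76726214 on the minus strand for Col6a1 and chrX:73483431-73483600 on the plus strand for Bgn.
Acta2: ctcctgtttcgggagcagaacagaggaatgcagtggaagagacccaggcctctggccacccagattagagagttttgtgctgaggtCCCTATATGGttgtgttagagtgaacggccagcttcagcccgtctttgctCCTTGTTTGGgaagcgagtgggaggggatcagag
Myl9: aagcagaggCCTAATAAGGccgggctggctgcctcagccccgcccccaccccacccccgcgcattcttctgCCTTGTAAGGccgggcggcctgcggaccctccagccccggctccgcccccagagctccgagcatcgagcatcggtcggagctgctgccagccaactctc
Col6a1: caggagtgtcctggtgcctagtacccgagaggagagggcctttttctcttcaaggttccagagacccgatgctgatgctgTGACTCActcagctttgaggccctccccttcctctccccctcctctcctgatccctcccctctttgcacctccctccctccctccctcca
Bgn: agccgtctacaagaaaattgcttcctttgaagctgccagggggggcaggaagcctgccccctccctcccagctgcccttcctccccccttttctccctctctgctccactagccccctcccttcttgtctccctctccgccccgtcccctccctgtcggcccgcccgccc

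Motifs were searched on both strands of the 250 bases upstream of each start, and 24 of the 40 members had a promoter in the table. The CArG box, CC and GG around 6 bases that are each A or T, occurred in 1 of the 24, Myl9, starting 161 bases upstream, and in 1.47% of all 32851 promoters. A CArG-like form with 1 C or G among those 6 bases occurred in 6 of the 24 and in 7.24% of all promoters. The Acta2 promoter held it at 84 and 34 bases upstream and the Myl9 promoter at 99 bases, and the others were Col1a2, Col6a3, Fbln2 and Serpinf1. The AP-1 site TGANTCA is the motif of the Jun and Fos proteins, of which the paper names cJun as a JNK substrate. It occurred in Col6a1 alone among the 24, at 90 bases upstream, and in 6.75% of all promoters. The TATA box TATAAA occurred in Col3a1 and Postn and in 12.4% of all promoters. The Bgn window held none of these letters, and a match or its absence says nothing about binding.

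Most members were at low levels. Of the 40, 23 had a mean over the 9 libraries under 1 FPKM, 14 stayed under 1 FPKM in every library and 14 were listed at 0 in at least 1 library. The filter for the test across genes, a group mean of 2 FPKM or more in at least 1 group, was passed by 15 members. Since a member can pass through the group in which it is high, those 15 do not stand for the list. A further limit is the same for all: in these bulk samples, fewer cells of a type and less RNA per cell cannot be told apart.

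Among the contractile genes, Acta2, the smooth muscle alpha-actin at chr19:34241090-34255336 in mm10, was low in E3KO and uneven in both controls. It stood at 4.31, 19.4 and 15.6 FPKM in ECtrl replicates 1 to 3, at 11.6, 28.1 and 35.1 in EfCtrl, and at 4.49, 6.32 and 5.74 in E3KO. Every E3KO library was under every EfCtrl library, but ECtrl replicate 1 lay under all 3 E3KO libraries. On the log2(FPKM + 1) scale, on which all differences below are given and which understates changes at low levels, Acta2 differed by -1.87 (SE 0.54) between E3KO and EfCtrl, by -0.91 (SE 0.54) between E3KO and ECtrl, and by 0.96 (SE 0.54) between EfCtrl and ECtrl. The distance between the 2 control groups was thus as large as the distance of E3KO from ECtrl.

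Tagln encodes transgelin, an actin-binding protein of smooth muscle, and went the same way. Its values were 3.74, 13.0 and 8.88 FPKM in ECtrl, 7.27, 13.9 and 18.8 in EfCtrl, and 3.07, 5.51 and 7.13 in E3KO. The E3KO and EfCtrl ranges did not overlap, whereas those of E3KO and ECtrl did, and the differences were -1.17 and -0.53 (SE 0.47 each), or -0.89 and -0.26 without the library labelled E3KO replicate 1. The row for Tagln in the tables spans chr9:45838580-45936058, which also takes in Bace1, Pcsk7 and Rnf214, so its value may include reads of those neighbours.

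Myl9, the regulatory myosin light chain, followed neither of them. It stood at 0.413, 0.740 and 1.61 FPKM in ECtrl, 4.40, 6.17 and 2.46 in EfCtrl, and 5.21, 0.651 and 1.13 in E3KO. All EfCtrl libraries were above all ECtrl libraries, with a difference of 1.46 (SE 0.50). E3KO held 1 high library, the one labelled E3KO replicate 1, and without it the difference from ECtrl went from 0.59 to 0.01 and that from EfCtrl from -0.87 to -1.45.

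Smtn encodes smoothelin, a cytoskeletal protein of contractile smooth muscle, and was the most highly expressed contractile member. Its libraries stood at 29.4, 20.5 and 27.1 FPKM in ECtrl, 29.1, 25.5 and 22.0 in EfCtrl, and 13.7, 16.1 and 18.4 in E3KO. Here the controls matched each other (difference 0.00, SE 0.18), and every E3KO library was lower than every control library, by -0.64 (SE 0.18) in both comparisons.

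The other 5 contractile genes were near the bottom of the scale. Actg2, the enteric gamma-actin, ranged from 0.0275 to 2.85 FPKM, Cnn1 (calponin) from 0 to 1.11 and Des (desmin) from 0.0453 to 1.05, while Lmod1 (leiomodin) and Myh11, the smooth muscle myosin heavy chain that defines the mature cell, stayed at or under 0.325. Cnn1 was lower in every E3KO library (0, 0.0839 and 0.103 FPKM) than in every control library (0.119 to 1.11). The transcripts of Acta2 and Actg2 shared 0.0% of their 40-base stretches, and 0.788% of those of Acta2 occurred in any other actin, so mixing of reads between the actins could touch little of either gene. Over all 9 contractile members the median difference was -0.37 for E3KO against ECtrl, -0.64 for E3KO against EfCtrl and 0.20 for EfCtrl against ECtrl. The medians over all 10605 genes tested were -0.08, -0.08 and -0.01, but those genes all passed the filter, unlike these members. Single libraries moved the first and the last contractile median. That against ECtrl was -0.19 without ECtrl replicate 2, and that between the controls was 0.43 without EfCtrl replicate 1 and 0.11 without EfCtrl replicate 3.

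**Figure D1:**
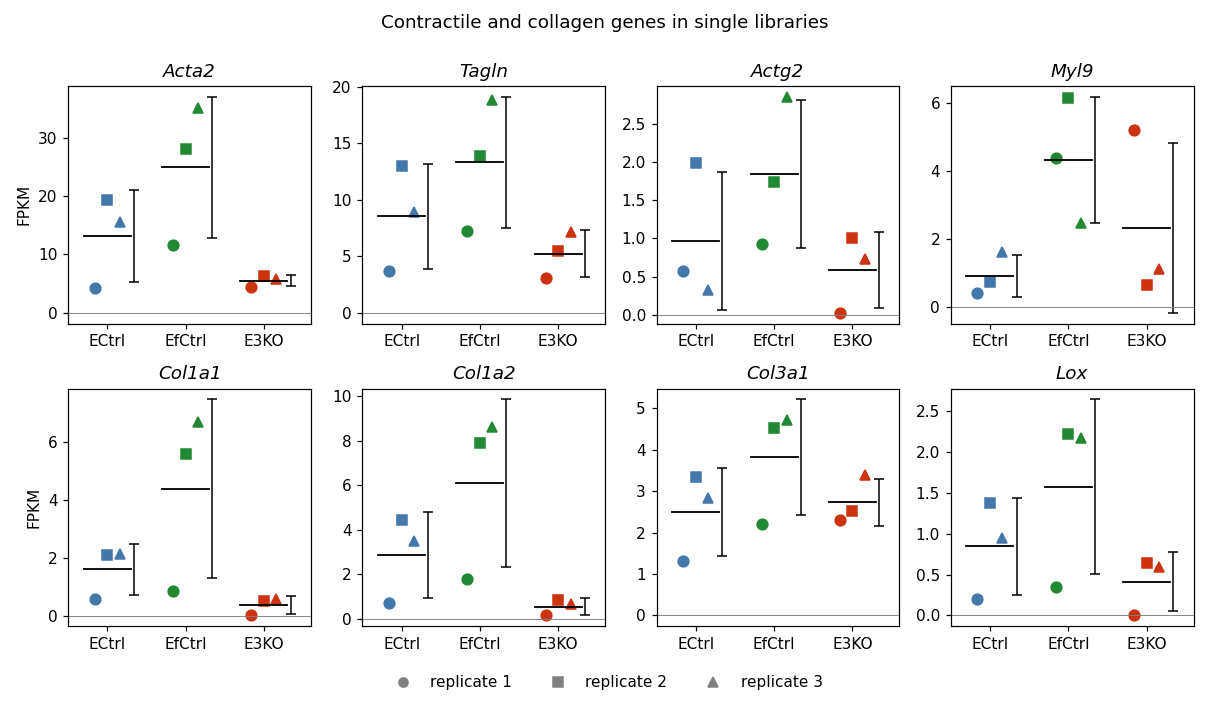
FPKM of 8 contractile, collagen and collagen-crosslinking genes in each of the 9 libraries (vertical axis, FPKM, one scale per gene), with points for single libraries, horizontal lines for group means and bars for ± 1 SD over 3 libraries. Acta2, Tagln, Col1a1, Col1a2 and Lox were lowest in the library numbered 1 of each group, and the 3 E3KO libraries of Acta2 sat between 4.49 and 6.32 FPKM.

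The genes that define pericytes and fibroblasts were close to absent. Pdgfrb, the platelet-derived growth factor receptor of mural cells, stood at 0.0753, 0.260 and 0.315 FPKM in ECtrl, 0.214, 0.221 and 0.440 in EfCtrl, and 0.229, 0.171 and 0.287 in E3KO, with no separation of the groups. Its fibroblast relative Pdgfra was at 0.343 to 0.713. Cspg4 (the proteoglycan NG2) did not exceed 0.0186 FPKM, and Rgs5, a regulator of G-protein signalling in pericytes, did not exceed 0.286. Tcf21, a transcription factor of lung fibroblasts, was listed at 0 in 7 of the 9 libraries. Notch3, the mural Notch receptor, was above every control library in all 3 E3KO libraries, at 0.256, 0.238 and 0.263 FPKM against 0.0151 to 0.0947, still a very low level.

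Thy1 was the exception. It encodes a surface glycoprotein used to mark fibroblasts and carried by several other cell types, and it was the most abundant of the 40 members. Its libraries stood at 330, 227 and 261 FPKM in ECtrl, 375, 210 and 255 in EfCtrl, and 142, 133 and 94.4 in E3KO. Group means were 272 ± 52.7, 280 ± 85.3 and 123 ± 25.4 FPKM (SD, n = 3 each), so the controls overlapped and every E3KO library lay under every control library, by -1.14 against ECtrl and -1.16 against EfCtrl (SE 0.25 each). Over all 7 identity members the medians were 0.02, -0.03 and 0.04 in the order used above.

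Separate marker lists held genes at 0 and genes at clear levels. Of 10 pericyte markers outside the members, Higd1b and Cox4i2 were listed at 0 in all 9 libraries, 5 never reached 1 FPKM, and the list summed to 10.2 to 16.6 FPKM in ECtrl, 18.2 to 20.9 in EfCtrl and 19.9 to 22.3 in E3KO, mainly through Kcnj8, Anpep and Abcc9. Of 12 fibroblast markers, Clec3b was at 0 throughout and 8 never reached 1 FPKM, and the sums of 168 to 183, 182 to 228 and 192 to 232 FPKM were mainly Gpx3. None of the 3 pericyte and 3 fibroblast markers that passed the filter was called in any comparison (limma, Benjamini-Hochberg adjusted p under 0.05), and at an unadjusted p under 0.05 there were 3 of the 6 in E3KO against ECtrl (Abcc9 and Anpep higher, Limch1 lower), 0 against EfCtrl and 1 (Kcnj8) between the controls. Over all genes tested, 20.1%, 17.7% and 1.84% had such a p in these 3 comparisons.

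Among the collagens, both type I chains repeated the pattern of Acta2 at a lower level. Col1a1 (chr11:94936224-94953042) stood at 0.591, 2.09 and 2.11 FPKM in ECtrl, 0.868, 5.57 and 6.67 in EfCtrl, and 0.0131, 0.501 and 0.583 in E3KO. Col1a2 stood at 0.682, 4.42 and 3.48 FPKM in ECtrl, 1.77, 7.89 and 8.63 in EfCtrl, and 0.146, 0.845 and 0.648 in E3KO. Col1a1 was lower in every E3KO library than in every control library, by a margin of 0.591 against 0.583 FPKM at its narrowest, while for Col1a2 the lowest ECtrl library fell inside the E3KO range. Against EfCtrl the differences were -1.76 (SE 0.53) for Col1a1 and -2.03 (SE 0.57) for Col1a2, against ECtrl they were -0.89 and -1.18, and EfCtrl exceeded ECtrl by 0.87 and 0.85. Without the library labelled E3KO replicate 1 they were -1.56 and -1.83 against EfCtrl and -0.69 and -0.98 against ECtrl.

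The other collagen chains varied in this respect. Col3a1, the fibrillar collagen of soft tissue, stood at 1.31, 3.35 and 2.83 FPKM in ECtrl, 2.20, 4.52 and 4.72 in EfCtrl, and 2.31, 2.52 and 3.38 in E3KO, with all groups overlapping. Col5a2, a type V chain that helps to start fibrils, was the most abundant collagen member at 13.4, 21.1 and 22.0 FPKM in ECtrl, 18.4, 19.2 and 24.0 in EfCtrl, and 15.6, 22.0 and 21.3 in E3KO, and its differences of 0.07 and -0.07 were smaller than their SE of 0.22 (0.22 and 0.08 without the library labelled E3KO replicate 1). The type VI chains Col6a1 and Col6a2 form beaded filaments. They reached 1.26 and 0.593 FPKM in ECtrl, 1.92 and 1.26 in EfCtrl and no more than 0.579 and 0.0732 in E3KO. Col6a1 overlapped between all groups, while Col6a2 was lower in every E3KO library than in every EfCtrl library but overlapped ECtrl. Col5a1, Col6a3 and Col12a1 stayed between 0.0880 and 1.86 FPKM with overlapping groups. The medians over the 9 collagens were -0.06, -0.33 and 0.46, and all 9 were higher in EfCtrl than in ECtrl by their means. The median against EfCtrl was -0.60 without EfCtrl replicate 1, -0.21 without EfCtrl replicate 2 and -0.18 without EfCtrl replicate 3, that between the controls was 0.19 without ECtrl replicate 1, 0.73 without EfCtrl replicate 1 and 0.29 without EfCtrl replicate 3, and that against ECtrl ran from -0.16 to -0.02.

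The next members are matrix proteoglycans and glycoproteins. Bgn encodes biglycan, a small leucine-rich proteoglycan that binds collagen, and it stood furthest apart on the higher side in E3KO. Its libraries stood at 8.31, 21.4 and 20.8 FPKM in ECtrl, 15.3, 30.6 and 34.6 in EfCtrl, and 85.8, 80.4 and 127 in E3KO. Means were 16.8 ± 7.39, 26.8 ± 10.2 and 97.6 ± 25.2 FPKM (SD, n = 3 each), a ratio of means of 5.79 to ECtrl and 3.64 to EfCtrl, with differences of 2.54 and 1.88 (SE 0.41 each). The lowest E3KO library, at 80.4 FPKM, lay well above the highest control library, at 34.6.

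Fbn1, which encodes fibrillin-1 of the microfibrils, stood apart on the lower side with the narrowest spread. It stood at 9.13, 7.01 and 8.15 FPKM in ECtrl, 9.19, 7.55 and 11.3 in EfCtrl, and 3.56, 3.78 and 3.55 in E3KO, by -0.97 and -1.14 (SE 0.15 each). Its row covers chr2:125300594-125507993 and also the predicted gene Gm9913. Fbln1 (fibulin-1) stood at 3.80, 2.25 and 3.25 FPKM in ECtrl, 2.82, 3.24 and 4.45 in EfCtrl, and 0.0550, 1.96 and 1.97 in E3KO, and the library labelled E3KO replicate 1 set much of that difference. Without that library the differences of -0.95 and -1.08 became -0.45 and -0.59, and the remaining E3KO libraries still lay under all control libraries.

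Other matrix members showed less separation. Fbln2 (fibulin-2) stood at 33.9, 23.7 and 31.0 FPKM in ECtrl, 30.8, 34.7 and 37.3 in EfCtrl, and 39.2, 36.4 and 42.5 in E3KO, which was above every ECtrl library but overlapped EfCtrl. Dcn (decorin), the proteoglycan related to biglycan, stood at 2.13, 5.12 and 3.28 FPKM in ECtrl, 3.42, 6.61 and 6.39 in EfCtrl, and 1.47, 3.35 and 7.69 in E3KO. Mgp, the matrix Gla protein that restrains calcification, stood at 2.31, 4.20 and 5.44 FPKM in ECtrl, 2.50, 8.17 and 9.06 in EfCtrl, and 1.13, 4.95 and 7.12 in E3KO. Both overlapped between all groups and spread widely within E3KO. Without the library labelled E3KO replicate 1 the difference of Dcn from ECtrl went from 0.06 to 0.50 and from EfCtrl from -0.47 to -0.03, and that of Mgp went from -0.04 to 0.53 and from -0.55 to 0.02.

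The other 9 matrix members were low. Lum (lumican) and Mfap4 were listed at 0 in 7 and 8 of the 9 libraries, and Eln, the gene of elastin, did not exceed 0.0649 FPKM. Lox, the enzyme that cross-links collagen, ranged from 0 to 2.22 FPKM and Mfap5 from 0 to 1.29, both highest in EfCtrl by their means. Postn (periostin), Loxl1 and Serpinf1, which encodes pigment epithelium-derived factor, stayed at or under 1.04 FPKM. Pcolce, an enhancer of procollagen cleavage, is listed in a joint row with its neighbour Fbxo24 and stood at 3.37 FPKM in the library labelled E3KO replicate 1 against at most 1.23 elsewhere. Over all 15 members of this set the medians were -0.01, -0.12 and 0.22.

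**Figure D2:**
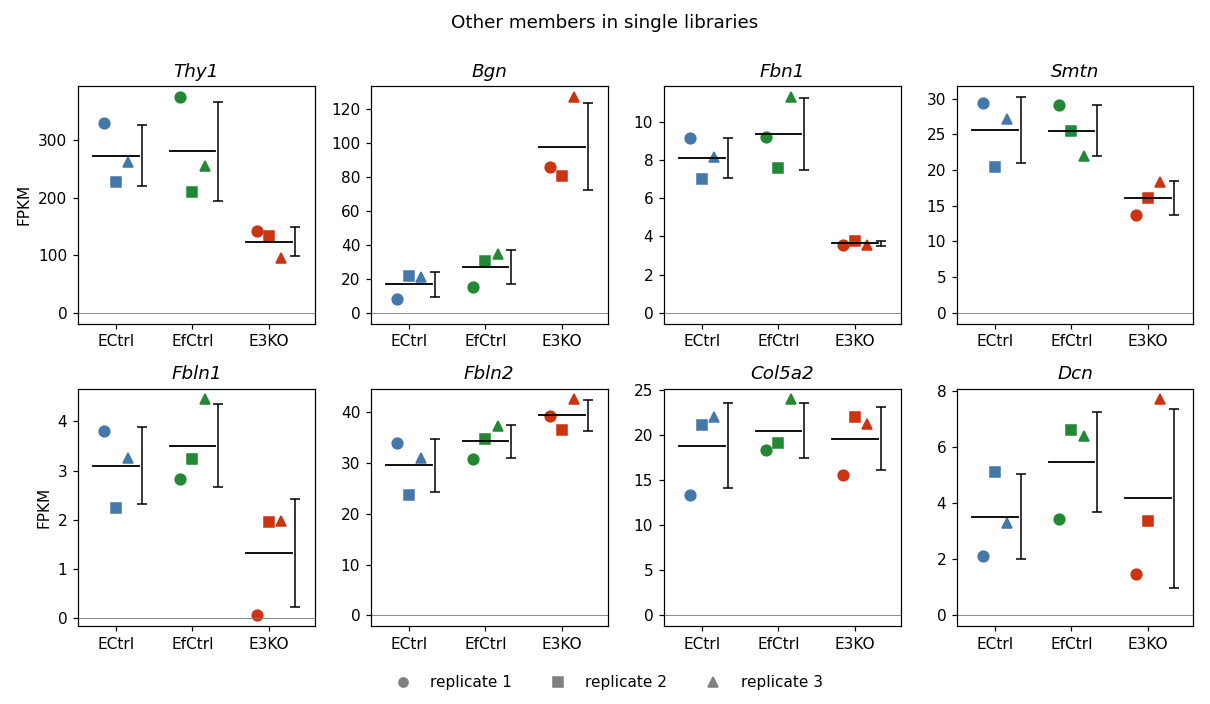
FPKM of 8 members in each of the 9 libraries (vertical axis, FPKM, one scale per gene), with points for single libraries, horizontal lines for group means and bars for ± 1 SD over 3 libraries. Thy1, Fbn1, Smtn and Fbln1 lay lower in all E3KO libraries than in all control libraries, Bgn lay higher, and Col5a2 and Dcn overlapped between all groups.

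Counted over all 40 members, 21 were lower and 17 higher in E3KO than in ECtrl by their mean difference, 32 were lower and 8 higher in E3KO than in EfCtrl, and 36 were higher and 4 lower in EfCtrl than in ECtrl. Without the library labelled E3KO replicate 1 the first count became 18 lower and 19 higher, and the second 30 lower and 10 higher. Most of these differences came from low values. Of the 15 members that passed the filter, 1 was called higher (Bgn) and 1 lower (Fbn1) in E3KO against ECtrl, where limma called 2.25% of 10605 genes in either direction, 0.82% higher and 1.43% lower. Against EfCtrl, Fbn1 alone was called, lower, where 0.952% of genes were called, 0.368% higher and 0.585% lower. Between the controls no member was called, and 0.0% of genes were, with 195 genes at an unadjusted p under 0.05. Bgn remained called against ECtrl in 4 of the 9 fits that left out 1 library, and Fbn1 in 3 of 9 in each comparison. The members were listed for differing between these groups, so these calls describe them and are no test of them.

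Separation of the groups was counted in the same way. Among the 15 that passed, 2 were higher and 5 lower in all E3KO libraries than in all ECtrl libraries, beside 6.99% and 15.9% of all genes tested. Against EfCtrl 1 was higher and 8 lower, beside 9.37% and 19.8%, and Myl9 alone separated EfCtrl from ECtrl, on the higher side, beside 3.48% of genes higher and 4.41% lower. Without the library labelled E3KO replicate 1 these counts were 2 and 5 against ECtrl, beside 13.6% and 22.4%, and 1 and 9 against EfCtrl, beside 17.8% and 27.6%. Since members were listed for differing between the groups, nothing is read from these counts.

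**Figure D3:**
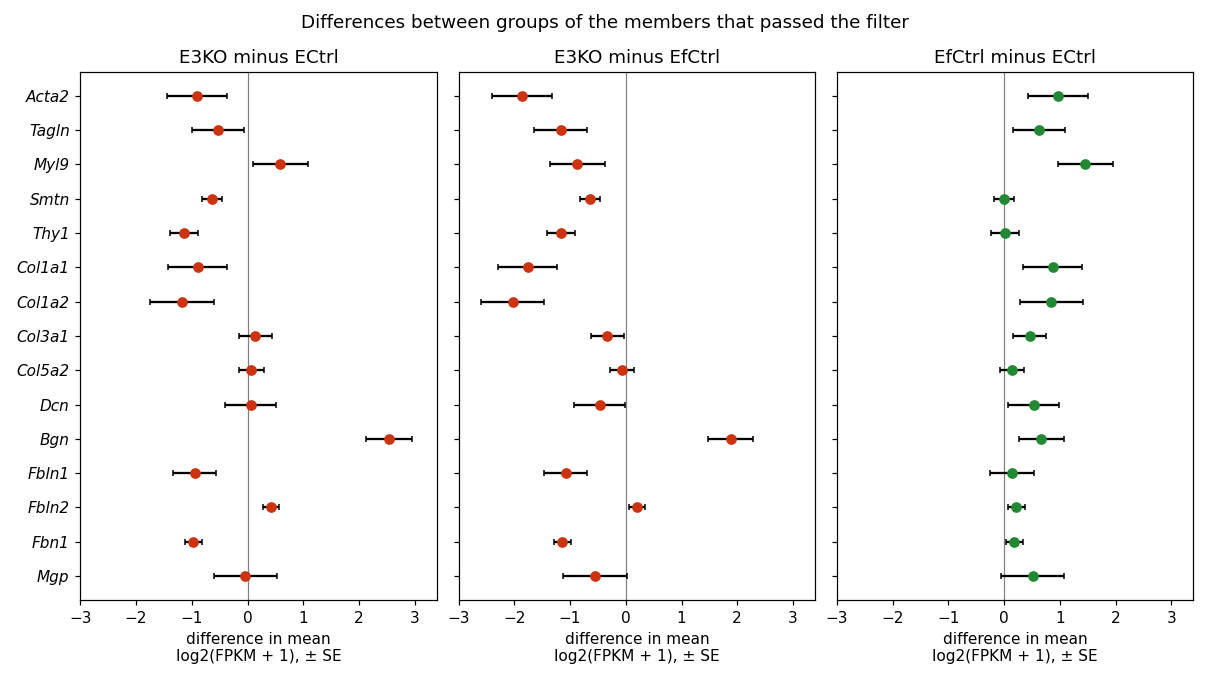
Differences in mean log2(FPKM + 1) between groups (horizontal axis, log2 units, bars ± SE from limma) for the 15 members that passed the filter (vertical axis), in 3 panels for E3KO minus ECtrl, E3KO minus EfCtrl and EfCtrl minus ECtrl. Smtn, Thy1, Fbln1 and Fbn1 lay to the left in both E3KO panels and near 0 between the controls, whereas Acta2, Tagln, Col1a1 and Col1a2 were displaced in all 3 panels.

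The spread within groups was not used to choose the members and could be tested. For each of 6 pairs of genes, deviations from the group mean were correlated over the 9 libraries, and p came from an exact two-sided permutation within groups over all arrangements, which can give no p under 0.00463. Acta2 and Tagln moved together (r = 0.93, rho = 0.90, exact permutation p = 0.00926 for r, adjusted 0.0278 over the 6 pairs). So did Col1a1 and Col1a2 (r = 0.96, rho = 0.88, exact permutation p = 0.0185, adjusted 0.0278) and Col1a1 and Col3a1 (r = 0.92, rho = 0.85, exact permutation p = 0.00926, adjusted 0.0278). Across the 2 groups of genes, the pair Acta2 and Col1a1 gave r = 0.89 and rho = 0.85 (exact permutation p = 0.0185, adjusted 0.0278).

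The endothelial gene Pecam1 gave lower values, r = 0.37 with Acta2 and r = 0.26 with Col1a1 (exact permutation p = 0.421 and 0.389). By rank none of the 6 pairs passed after adjustment, with the 4 first pairs at exact permutation p of 0.0833 to 0.104 for rho. The 2 libraries farthest from the median on the horizontal measure were ECtrl replicate 1 and EfCtrl replicate 1 in each pair, and without them r was 0.83, 0.91, 0.80 and 0.77 for the 4 first pairs in the order given. Without all 3 libraries numbered 1, an alternative chosen after seeing the data, r was 0.74, 0.12, 0.39 and 0.54, and with so few arrangements no p could pass. The r of the collagen pairs was thus lower without all 3 libraries numbered 1 than without 2 of them. With so few libraries left, that setting cannot decide how far their joint movement rested on the libraries numbered 1.

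Over all pairs of collagen members the median within-group r was 0.79, and all 36 pairs were above 0. The 81 pairs of a contractile gene with a collagen had a median of 0.63, the 36 contractile pairs 0.34, the 21 pairs of identity genes -0.15 and all 780 pairs of members 0.33, beside 0.04 over all pairs of genes tested. The member pairs include genes under the filter, whereas the pairs of genes tested do not. These values are descriptions, since all genes of a library share its preparation and its depth. Among the contractile genes Myl9 (r = -0.02 with Acta2) and Smtn (r = -0.64) did not follow Acta2, and of the identity genes Thy1 ran against it (r = -0.75). Bgn followed Acta2 within groups (r = 0.93) but not over the 9 libraries (r = -0.26), being low in the libraries numbered 1 of both controls and highest in E3KO. Fbn1 did not follow Col1a1 within groups (r = -0.09).

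The genes outside the list whose pattern over the 9 libraries was most like the mean of the contractile members were Aldh1a2 (r = 0.977), Upk1b (r = 0.940), Myh10, Sncaip and Synrg. For the mean of the collagen members they were Upk1b (r = 0.978), Aldh1a2 (r = 0.950), Cpd, Slk and Myh10. Aldh1a2 encodes a retinaldehyde dehydrogenase and stood at 0.0813, 0.798 and 1.05 FPKM in ECtrl, 0.572, 3.18 and 3.35 in EfCtrl, and 0, 0.132 and 0.113 in E3KO. Upk1b, a uroplakin made by mesothelium, stood at 0.143, 1.09 and 2.09 FPKM in ECtrl, 0.714, 3.12 and 2.73 in EfCtrl, and 0, 0.250 and 0.759 in E3KO. Both were lowest in the library numbered 1 of each group and, like the type I collagens, highest in EfCtrl.

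The mesothelial marker list moved in the same way in part. Wt1, the transcription factor of mesothelium, stood at 0.0464, 0.763 and 0.682 FPKM in ECtrl, 0.196, 1.68 and 1.64 in EfCtrl, and 0, 0.0728 and 0.157 in E3KO. Within groups its r was 0.98 with Col1a1, 0.97 with Col1a2 and 0.92 with Acta2, and 11 of the 40 members (27.5%) had r of 0.8 or more with it, beside 0.736% of the genes tested. Those 11 held 5 of the 9 collagens, 4 of the 9 contractile genes, Bgn and Lox, and none of the 7 identity genes. The genes tested all passed the filter and most members did not, so these shares come from unlike sets. The comparison was chosen after seeing the data and carries no test.

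Of the 8 mesothelial markers, Upk3b, Upk1b and Lrrn4 followed Wt1 within groups (r = 0.82, 0.90 and 0.91), Krt19 had r = 0.42, and Msln, Krt7 and Gpm6a did not (r = -0.20, -0.48 and -0.62). The whole list summed to 29.1 to 32.5 FPKM in ECtrl, 26.4 to 30.5 in EfCtrl and 18.7 to 21.3 in E3KO, nearly all of it Gpm6a at 18.2 to 32.3. Without Gpm6a the sums were 0.250, 3.52 and 4.49 FPKM in ECtrl, 1.91, 6.79 and 6.25 in EfCtrl, and 0.526, 0.655 and 1.35 in E3KO. Msln, Krt19 and Krt7 did not exceed 0.450 FPKM, Wt1, Upk3b, Upk1b and Lrrn4 were listed at 0 in the library labelled E3KO replicate 1, and the 2 markers that passed the filter (Gpm6a and Upk1b) were not called by limma, with 1 at an unadjusted p under 0.05 in each comparison of E3KO and 0 between the controls. Such a p was held by 20.1%, 17.7% and 1.84% of all genes tested in E3KO against ECtrl, against EfCtrl and between the controls. The part of mesothelial cells in the levels of Acta2, Tagln and the collagens was not tested.

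**Figure D4:**
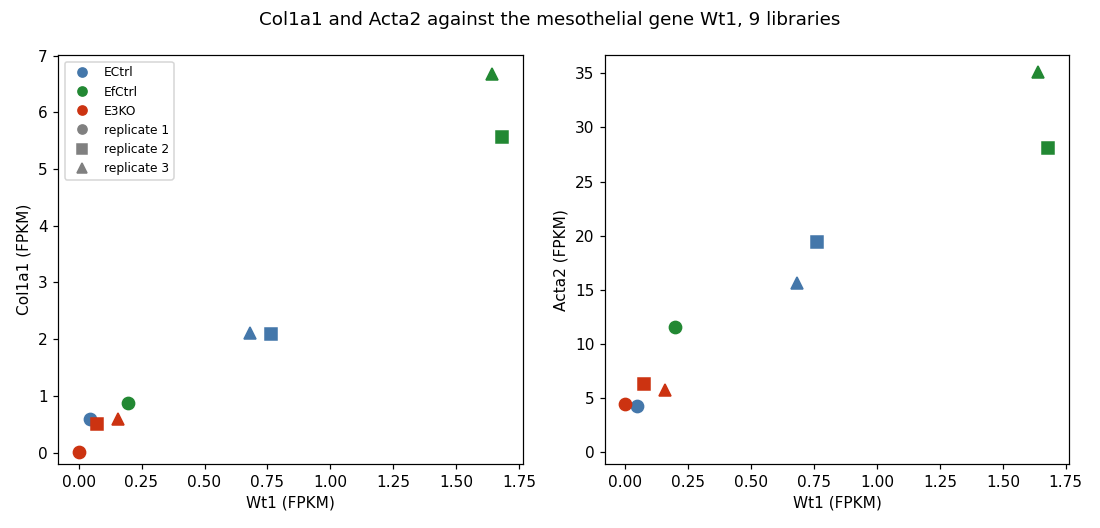
Col1a1 (left) and Acta2 (right) against Wt1, all in FPKM on linear axes, with 1 point per library, colour for the group and shape for the replicate number. Both genes were higher where Wt1 was higher, from the library labelled E3KO replicate 1 with Wt1 at 0 to EfCtrl replicates 2 and 3 with Wt1 at 1.68 and 1.64 FPKM.

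Markers of other cells differed between the groups too. The 10 macrophage and leukocyte markers summed to 86.1 to 182 FPKM in ECtrl, 181 to 301 in EfCtrl and 237 to 368 in E3KO, with Lyz2 (lysozyme) the highest, at 28.0 to 221 FPKM, and none of the 10 listed at 0. Within groups Lyz2 had r = 0.75 with Acta2 and 0.51 with Col1a1. The 9 epithelial markers summed to 2.55 to 6.05 FPKM in 8 libraries. For the library labelled E3KO replicate 1 their sum was 51.6, of which 46.2 was Scgb1a1, the secretoglobin of club cells. None of the 6 macrophage and 2 epithelial markers tested was called by limma. At an unadjusted p under 0.05 there were 5 macrophage markers, all higher, in E3KO against ECtrl, 1 against EfCtrl and 1 between the controls, and 0 epithelial markers in any comparison, beside the 20.1%, 17.7% and 1.84% of all genes. Their part in the results for the members was not tested.

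**Figure D5:**
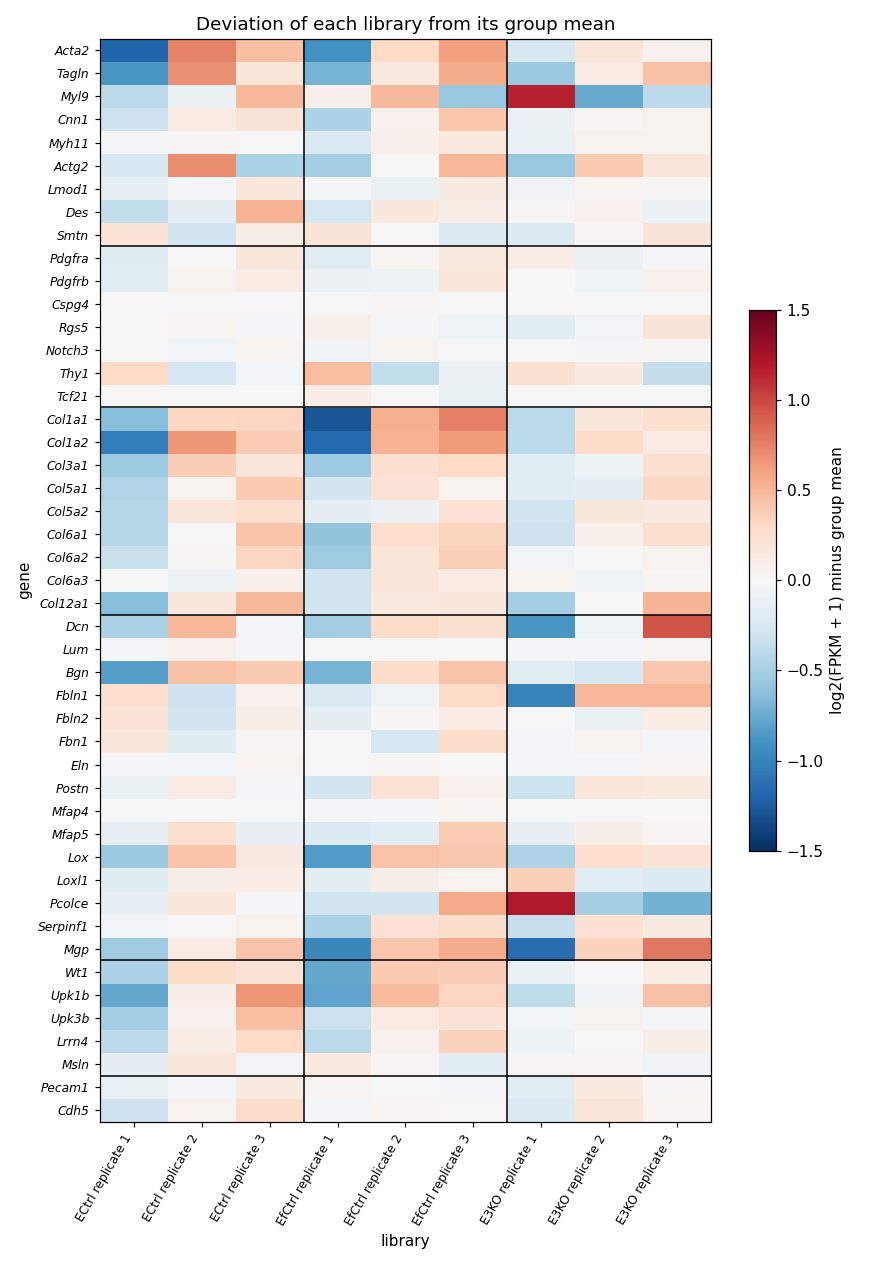
Deviation of each library from its group mean in log2(FPKM + 1) (colour, blue lower and red higher, in log2 units) for the 40 members, 5 mesothelial markers and 2 endothelial genes (vertical axis) in the 9 libraries (horizontal axis). The mesothelial markers shown are Wt1, Upk1b, Upk3b, Lrrn4 and Msln. Gpm6a, Krt7 and Krt19, with within-group r of -0.62, -0.48 and 0.42 with Wt1, are not shown. The collagens, Acta2, Tagln, Bgn, Lox and Wt1 were blue in ECtrl replicate 1 and EfCtrl replicate 1, except Col6a3 at -0.007 in ECtrl replicate 1. Smtn and Thy1 were red in both libraries. Of the endothelial genes Pecam1 stayed near 0 there, and Cdh5 was at -0.314 in ECtrl replicate 1 and -0.028 in EfCtrl replicate 1.

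Of 20 further contractile genes and targets of serum response factor, 13 passed the filter. Limma called 0 of the 13 in the 3 comparisons, beside 2.25%, 0.952% and 0.0% of all genes. With so few calls over all genes, nothing is read from that count. At an unadjusted p under 0.05 limma had 2 of them in E3KO against ECtrl (Csrp1 and Pgm5), 3 against EfCtrl (those and Itga8) and 0 between the controls. Such a p was held by 20.1%, 17.7% and 1.84% of all genes tested. Of the 20 genes, 7 never reached 1 FPKM, while others were at high levels. Which cells of the cultures made them was not tested. Tpm1 and Cald1, tropomyosin 1 and caldesmon of the actin filament, stood at 162 to 246 and 148 to 198 FPKM over the 9 libraries. Flna (filamin A) stood at 112 to 177 FPKM and Csrp1, a LIM-domain protein of smooth muscle, at 96.1 to 182, with Csrp1 at -0.60 against ECtrl (adjusted p = 0.0787, limma). Myocd, the myocardin that turns on the smooth muscle programme with serum response factor, did not exceed 0.0499 FPKM.

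Among 34 other matrix and collagen-processing genes, 24 were tested and 2 were called, both lower in E3KO against ECtrl. Over all genes limma called 1.43% lower in that comparison and 0.585% lower against EfCtrl. Ltbp1, which tethers latent TGF-beta to fibrillin microfibrils, stood at 8.23, 8.18 and 7.72 FPKM in ECtrl, 10.5, 7.09 and 9.65 in EfCtrl, and 3.45, 4.66 and 4.09 in E3KO. It fell by 0.84 against ECtrl (adjusted p = 0.0379) and by 0.99 against EfCtrl (adjusted p = 0.0378, limma), and every E3KO library was lower than every control library. Col15a1, a basement membrane collagen, stood at 6.39, 5.92 and 8.12 FPKM in ECtrl, 5.31, 7.60 and 7.53 in EfCtrl, and 3.99, 2.80 and 2.65 in E3KO, and fell by 0.92 against ECtrl (adjusted p = 0.0476) with -0.91 against EfCtrl (adjusted p = 0.0648, limma). Sparc and Fn1, matrix proteins that endothelium makes in quantity, were at 1220 to 1860 and 954 to 1940 FPKM with overlapping groups.

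Among 17 TGF-beta readouts and factors of endothelial-to-mesenchymal transition, 15 were tested. Of these 1 was called, in E3KO against ECtrl, where limma called 2.25% of all genes. Tgfb2, a TGF-beta ligand, stood at 18.0, 19.2 and 16.1 FPKM in ECtrl, 17.4, 15.1 and 17.3 in EfCtrl, and 11.9, 9.61 and 7.66 in E3KO. It fell by 0.82 against ECtrl (adjusted p = 0.0409), with -0.73 against EfCtrl (adjusted p = 0.0720, limma). Vim (vimentin) at 2170 to 4120 FPKM and Tgfbr2, the TGF-beta type II receptor, at 269 to 375 were not called. The calls of Ltbp1, Col15a1 and Tgfb2 are near the threshold: each held in 1 of 9 fits that left out 1 library, with adjusted p up to 0.126 and 0.172 for Ltbp1 against ECtrl and EfCtrl, 0.142 for Col15a1 and 0.132 for Tgfb2. Those highest values came without ECtrl replicate 1, EfCtrl replicate 3, E3KO replicate 3 and ECtrl replicate 1, in that order.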

How the data were processed

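Messenger RNA was sequenced in 9 libraries, 3 in each of 3 groups taken from the sample labels. The authors deposited FPKM per gene and library in tables of group comparisons, made per the submitters' processing notes with TopHat, Bowtie, Cufflinks 1.0.3 and Cuffdiff on mm10. The annotation and use of strand are not given in the sources used here, so reads of overlapping genes cannot be told apart: 19 of the 40 member rows overlap another gene in GENCODE M21 (4 a protein-coding one). The tables also hold the authors' group values, fold changes, test statistics, p-values and q-values, which were not used. Values repeated between tables were identical. Depth is unknown, so no counting interval can be given. Whether libraries of a group came from separate litters or days is not stated, so p-values measure the spread between these preparations.

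Symbols naming several loci were left out of the tests, as were genes with a mean under 2 FPKM in every group. log2(FPKM + 1) of all 9 libraries was fitted in 1 model of 3 groups with limma 3.58.1 (R 4.3.3), with Benjamini-Hochberg adjustment over 10605 genes and a threshold of 0.05. The procedure was tested on simulated data. Within-group correlations used exact permutations (scipy 1.17.1, numpy 2.4.6), with p adjusted over 6 pairs. The members and lists were chosen with earlier results of these data known. Values in every library are given for members with a mean of 2 FPKM or more over the 9 libraries, and for Acta2, Tagln, Col1a1 and Pdgfrb whatever their level. Other lists were to be shown by up to 4 genes each, called ones first and then the most abundant, and the 5 genes nearest in pattern to the contractile and collagen means are named. Genes named beyond that rule (Cnn1, Notch3, Cldn5, Wt1, Myocd, Pgm5, Itga8 and others described singly) were chosen after their values were seen. Alternatives were another pseudocount (0.1), no filter, a filter on the 9-library mean of 1 FPKM, a minimum absolute log2 difference of 0.5, centring of each library on its median, a replicate block, each library left out in turn, and, added after seeing the data, all 3 libraries numbered 1 left out.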

Additional observations from a re-analysis of the deposited data

How the results depend on the processing

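Counts of called genes (239 for E3KO against ECtrl, 101 against EfCtrl, 0 between the controls) depended on single libraries: with 1 library left out they ran from 0 to 215, from 1 to 218 and from 0 to 4, and the 0 and 1 came without E3KO replicate 3. With no filter on low values limma called 95 and 17 genes, with 20429 instead of 10605 tested. Without the 3 libraries numbered 1, an alternative chosen after seeing the data, it called 2, 14 and 5. Over all genes tested, the deviations of same-numbered libraries had r from -0.040 to 0.123, and those of differently numbered ones from -0.215 to 0.079. The highest r were between the controls numbered 1 (0.123) and the controls numbered 2 (0.119). Since no same-numbered r exceeded 0.123, the numbers are read as names only. Acta2 and the type I collagens were, however, lowest in the library numbered 1 of each group. With the replicate block 1 gene was called in each comparison of E3KO, and Bgn, Fbn1, Ltbp1, Col15a1 and Tgfb2 were not. For Ltbp1, Col15a1 and Tgfb2, which are not members, adjusted p was 0.078 to 0.108 where they had been called (limma).

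Median differences of the lists have no test. On log2(FPKM + 0.1), which weighs low values more, the contractile medians were -0.66 for E3KO against ECtrl, -1.29 against EfCtrl and 0.70 between the controls, the collagen median against EfCtrl was -0.75, the median of the other matrix genes was -0.54 against EfCtrl and 0.58 between the controls, and that of the identity genes 0.13 against ECtrl and 0.13 between the controls. With each library centred on its median the identity medians were 0.09 and 0.04 for E3KO against ECtrl and EfCtrl, and with 1 library left out they ran from 0.00 to 0.08 and from -0.07 to 0.01, all close to 0. Between the controls they ran from 0.01 to 0.06. Of 36 medians under these and the added setting 26 stayed within the spread between replicates, as did 68 of 72 with 1 library left out.

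The 4 correlations among Acta2, Tagln and the collagens kept their direction: with 1 library left out r ran from 0.88 to 0.97 for Acta2 and Tagln, 0.95 to 0.98 for Col1a1 and Col1a2, 0.91 to 0.95 for Col1a1 and Col3a1 and 0.87 to 0.97 for Acta2 and Col1a1, with fewer arrangements and an exact permutation p of 0.0833 after adjustment in the 20 fits that no longer passed. Without the 3 libraries numbered 1 they were 0.74, 0.12, 0.39 and 0.54 (adjusted exact permutation p = 1.0), and that setting cannot reach the threshold. The number of libraries limits what can be said of any member under 1 FPKM, since the depth behind such a value is unknown.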

Other observations

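Further genes of the same programmes, chosen after their values were seen, moved with the members or against them. Tpm2, the gene of beta-tropomyosin, had r = 0.82 with Acta2 over the within-group deviations of the 9 libraries. It stood at 0.985, 3.98 and 2.79 FPKM in ECtrl, 2.30, 5.38 and 6.62 in EfCtrl, and 3.53, 2.47 and 1.30 in E3KO. Inside E3KO it did not follow Acta2: the library labelled E3KO replicate 1 was highest for Tpm2 and lowest for Acta2, at 4.49 FPKM. Ctgf, connective tissue growth factor, stood at 150, 195 and 119 FPKM in ECtrl, 142, 138 and 149 in EfCtrl, and 316, 236 and 264 in E3KO. Ctgf was thus higher in all E3KO libraries than in all control libraries while Tgfb2 was lower, but it did not pass the threshold in limma, with differences of 0.83 against ECtrl (adjusted p = 0.0624) and 0.91 against EfCtrl (adjusted p = 0.0678).

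Efemp1, a fibulin related to Fbln1 and Fbln2, ran from 0.299 FPKM in the library labelled E3KO replicate 1 to 8.10 in E3KO replicate 3, a spread inside 1 group wider than the whole range of both controls (0.410 to 2.88). Twist2 and Myocd, transcription factors of mesenchyme and smooth muscle, did not exceed 0.382 and 0.0499 FPKM in any library.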
